A study of Homo sapiens with 22 samples.

Results

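Cluster 12 was a group of 114 melanoma cells among 40021 cells of a single-cell RNA sequencing (scRNA-seq) experiment. These cells carried high levels of antiviral and interferon-stimulated genes. They were taken as every cell to which the authors' deposited annotation gave cluster number 12, and all of them lay in the drug-susceptible (non-primed) state, which held 35944 cells. The 35830 other non-primed cells served as the comparison. All cells came from WM989 A6-G3, a clone of a BRAF V600E human melanoma line that had been grown from a single cell and carried a transcribed lineage barcode, so the experiment describes 1 clone. Cells from a single well were expanded, split over 4 plates and kept for 5 days without treatment (Control), with 5 ng/mL of recombinant TGFB1, with 4 µM of the TGFβ receptor inhibitor LY2109761 (TGFBRi), or with 2 µM of the PI3K inhibitor GDC-0941 (PI3Ki). Per the methods a second well was carried in parallel, so each treatment had 2 libraries, which the deposited cell table calls r1 and r2. The sample labels instead call the 2 libraries of each treatment Mix and Primed, so a difference in starting cells between r1 and r2 and the spread between replicates cannot be told apart. The question was how these treatments move cells between the drug-susceptible state and the primed state, from which drug-resistant cells arise.

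The 8 libraries held 70239657 to 122420544 unique molecular identifiers (UMIs) each, and the cluster 12 cells together held 2023449. Levels are given as CPM, the UMIs of a gene scaled to the same total of UMIs in every group, summed over the cells of a group. Of all 40021 cells, 388 had a cell barcode that also occurred in another library, and 0 of these were in cluster 12. The cells were deposited already clustered on these same counts, so differences in RNA between cluster 12 and the rest are a description, and no test is attached to them.

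Cells sense viral or misplaced RNA in the cytoplasm through RIG-I (gene DDX58) and MDA5 (gene IFIH1), which signal through MAVS and TBK1 to the transcription factors IRF3 and NF-kB. These switch on type I interferon genes and, directly, a set of early response genes. Secreted interferon then acts through its receptor and JAK kinases on genes that carry an interferon-stimulated response element (ISRE) near their start. IFIT1, IFIT2 and IFIT3 encode proteins that bind foreign RNA or its partners, OASL enhances RIG-I signalling, HERC5 attaches the ubiquitin-like protein ISG15 to other proteins, and PMAIP1 encodes NOXA, a BH3-only protein that promotes apoptosis.

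The core of the ISRE (GAAANNGAAA on either strand, overlapping matches counted) was searched in the 250 bases before each gene start, in RefSeq promoters of build GRCh38.p14. Of 35116 promoters, 3.02% held it. Among the 5 marker genes with an entry in the promoter table (IFIT3, IFIT1, IFIH1, HERC5 and PMAIP1) it was found in 4, and among 6 other genes that led cluster 12 (see the levels given further on) it was found in 4, namely IFI44, DDX60, RTP4 and ISG15. The pieces that carry it are shown for 4 markers and for ISG15, with the matching letters in capitals, since they are the sequence these genes share. IFI6 is shown for contrast, because its promoter had 3 matches while its level in cluster 12 hardly differed from the other cells. The capitals that open the IFI6 piece are the end of a match that begins before it.
IFIT3, chr10:89327855-89327904, plus strand: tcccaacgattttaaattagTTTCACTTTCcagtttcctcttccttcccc
IFIT1, chr10:89392487-89392549, plus strand: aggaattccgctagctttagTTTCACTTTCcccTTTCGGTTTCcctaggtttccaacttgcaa
IFIH1, chr2:162318685-162318725, minus strand: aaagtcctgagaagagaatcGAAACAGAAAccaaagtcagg
HERC5, chr4:88457025-88457074, plus strand: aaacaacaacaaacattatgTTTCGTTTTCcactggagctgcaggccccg
ISG15, chr1:1013364-1013419, plus strand: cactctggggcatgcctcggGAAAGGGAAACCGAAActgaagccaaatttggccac
IFI6, chr1:27672256-27672305, minus strand: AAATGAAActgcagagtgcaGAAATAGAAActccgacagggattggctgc

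The shown matches lay close to the gene starts. The last match in capitals lay 11 bases before the start of IFIH1, 64 bases before that of HERC5, 93 bases before that of IFIT1, 97 bases before that of ISG15 and 112 bases before that of IFIT3. The kB element (GGGANNTTCC, either strand) was found in 1.40% of all promoters and in IFIH1 alone of the 5 markers. A match is only a run of letters, and a missing match says only that these letters are not in this window. Of the 37 matched promoters of a longer list of interferon-stimulated genes beyond the markers, 17 held the ISRE core.

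The 8 marker genes were all higher in cluster 12 than in the other non-primed cells in every library, by 19.8-fold to 690-fold over the summed cells. The IFIT genes, whose proteins act together on foreign RNA, were abundant in cluster 12 and scarce elsewhere. IFIT2 stood at 723 and 1194 CPM in the cluster 12 cells of the Control libraries, 810 and 700 CPM with TGFB1, 312 and 639 CPM with TGFBRi, and 952 and 772 CPM with PI3Ki. In the other non-primed cells of the same libraries IFIT2 lay between 1.19 and 2.71 CPM. A gap between the groups is largely built in, because the cells were clustered on these counts. The summed levels were 810 CPM (counting interval 771 to 850 CPM) in cluster 12 and 1.57 CPM in the other cells.

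IFIT3 stood at 1291 and 1175 CPM in cluster 12 of the Control libraries, 1309 and 1151 CPM with TGFB1, 1018 and 1118 CPM with TGFBRi, and 1580 and 938 CPM with PI3Ki. It was at 6.53 to 9.93 CPM in the other non-primed cells. IFIT3 was the steadiest of the 3 IFIT genes across libraries, with a ratio between 116 and 242. IFIT1 had 171 to 573 CPM in cluster 12 against 1.56 to 2.70 CPM, a summed ratio of 164.

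The RNA sensors were both raised. IFIH1 was at 366 CPM in cluster 12 and 4.57 CPM in the other non-primed cells, 80.1-fold, with ratios of 46.8 to 138 over libraries. DDX58 was at 66.2 and 2.30 CPM, 28.8-fold, with ratios up to 49.6. In TGFBRi r1 its 6.24 CPM was a single UMI, so the ratio of 3.22 there says little.

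OASL had the widest range of all. It stood at 55.6 and 149 CPM in the Control libraries, 8.76 and 121 CPM with TGFB1, 74.9 and 47.4 CPM with TGFBRi and 7.05 and 5.04 CPM with PI3Ki. In the other non-primed cells it was at most 0.321 CPM, so the summed ratio of 690 rests on a denominator of 62 UMIs. Without Control r2 the ratio was 424, and with primed cells counted among the others it was 60.1 (IFIT2 254, IFIT1 108). Both PI3Ki libraries held a single UMI of OASL in cluster 12. OASL was carried by few cells: 42 of the 114 cells had a UMI of it, 46 of its 137 UMIs came from 1 cell, and the 10 highest cells held 69.3%.

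HERC5 was at 636 CPM in cluster 12 and 32.2 CPM elsewhere, 19.8-fold, with 379 CPM as its lowest and 951 CPM as its highest library. PMAIP1 was at 1009 and 34.5 CPM, 29.3-fold. PMAIP1 had a UMI in all 114 cells and in 36.3% of the other non-primed cells (94.7 and 14.4% after thinning to 5000 UMIs), and no cell type that lacks the gene was at hand to give the share from free RNA. By contrast, most of the non-primed RNA of OASL and IFIT2 was in cluster 12: its 0.317% of the non-primed cells held 68.8% of all non-primed OASL UMIs, 62.3% of IFIT2, 34.4% of IFIT1, 33.0% of IFIT3 and 20.4% of IFIH1.

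**Figure D1:**
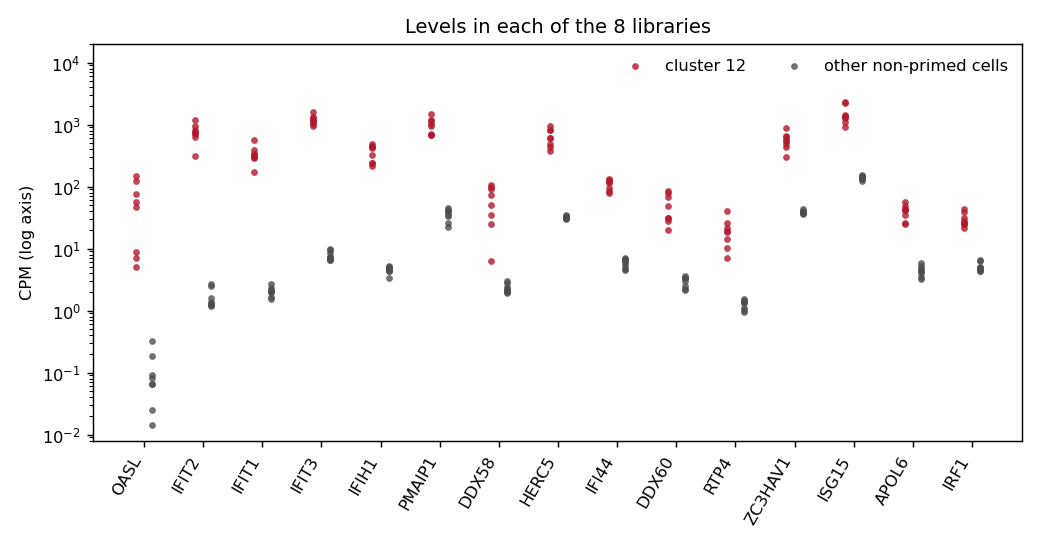
CPM (log axis) of the 8 markers and 7 further genes in the summed cluster 12 cells (red) and the summed other non-primed cells (grey), 1 point for each of the 8 libraries. The genes were picked as higher in cluster 12 in all 8 libraries, so the gap between the groups was largely set by that choice. OASL spreads most, from 5.04 to 149 CPM in cluster 12.

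The next genes by ratio included 3 of the fixed list of interferon-stimulated genes, IFI44, DDX60 and ISG15. Among genes with at least 20 CPM in cluster 12 and a higher level than in the other cells in all 8 libraries, the 7 that followed the markers were IFI44 (110 against 5.94 CPM, 18.6-fold), DDX60 (50.4 against 2.94 CPM, 17.1-fold), RTP4 (21.7 against 1.27 CPM, 17.1-fold), ZC3HAV1 (569 against 39.1 CPM, 14.6-fold), ISG15 (1627 against 139 CPM, 11.7-fold), APOL6 (38.5 against 4.50 CPM, 8.57-fold) and IRF1 (29.7 against 5.07 CPM, 5.85-fold). DDX60 is a helicase that takes part in RNA sensing, ZC3HAV1 is the zinc-finger antiviral protein ZAP, and IRF1 is a transcription factor of interferon responses. ISG15, the ubiquitin-like protein that HERC5 attaches, stood at 2300 and 2212 CPM in cluster 12 of the Control libraries, 1256 and 1365 CPM with TGFB1, 1349 and 1423 CPM with TGFBRi, and 924 and 1119 CPM with PI3Ki. Its lowest library in cluster 12 was above the 125 to 156 CPM of the other non-primed cells.

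Most genes did not differ in this way. At a floor of 5 CPM in one group or the other, 9967 genes remained, of which 196 (1.97%) had a ratio above 2 and 131 (1.31%) were higher in all 8 libraries, and the median ratio was 1.01. Among the 5838 genes with at least 20 CPM, 68 had a ratio above 2 and 9 a ratio under 0.5. The 5 lowest ratios among genes lower in all 8 libraries were those of SLCO5A1 (0.344, 8.90 against 25.8 CPM), UBL3 (0.414, 41.0 against 99.2 CPM), CERK (0.429), CYP7B1 (0.431) and POU3F1 (0.437). UBL3, which encodes a ubiquitin-like protein, was the only one of these with more than 40 UMIs in the cluster.

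The wider list of interferon-stimulated genes was divided. Of its 47 genes beyond the markers 34 reached 5 CPM, and 14 of these had a ratio above 2 and 10 were higher in all 8 libraries. Of all genes at that floor, 1.97% had such a ratio and 1.31% were higher in all 8 libraries. The median ratio of the list was 1.72. Besides IFI44, DDX60 and ISG15, the higher ones included HERC6 (16.8 against 3.11 CPM, 5.41-fold), ISG20 (91.9 against 31.2 CPM, 2.94-fold), STAT2 (29.2 against 11.3 CPM, 2.58-fold) and USP18 (25.7 against 11.3 CPM, 2.27-fold), a brake on interferon receptor signalling. Several widely used interferon targets were near the level of the other cells. MX1, an antiviral GTPase, had 2 UMIs in cluster 12 (0.988 CPM against 1.61 CPM), IFI6 was at 51.9 against 42.1 CPM (1.23-fold), and the RNA-binding enzymes ADAR and EIF2AK2 had ratios of 0.945 and 0.984. RSAD2, the antiviral enzyme viperin, was not among these but higher, though in few cells. It had 26 UMIs in 5 cells, 16 of them in 1 cell, and a ratio of 9.76 without that cell. The cluster is therefore described here by its number and its leading genes. Beyond the markers, its label of an interferon response held for part of the wider list only. The 8 markers were among the clustered counts, so they cannot test that label.

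No interferon was detected in these cells. The 16 genes of type I and type III interferons had 0 UMIs in cluster 12, which allows each of them a level of up to 1.48 CPM, and in the other non-primed cells they summed to 0.0728 CPM. The 8 detected receptor and JAK genes had ratios of 0.815 to 1.38 with a median of 1.06, and 0 of them exceeded 2. IFNAR1, a chain of the type I receptor, was at 39.5 against 46.5 CPM, and JAK1 at 89.9 against 85.3 CPM.

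Among the genes of nucleic acid sensing 14 were detected, and 5 had a ratio above 2, where 1.97% of all genes did. The 5 were the sensors IFIH1 and DDX58 themselves, the sensing regulator DHX58 (6.42 against 1.32 CPM), the antiviral helicase ZNFX1 (89.0 against 30.8 CPM, 2.89-fold) and the kinase RIPK1 (26.7 against 10.6 CPM, 2.52-fold). IFIH1 and DDX58 are markers. They and DHX58 reached the floor of 5 CPM only in cluster 12, so being higher there was built in. The 3 signalling genes named above were near or below the level of the other cells. MAVS was at 42.5 against 52.3 CPM and lower in all 8 libraries, TBK1 at 16.8 against 19.4 CPM, and IRF3 at 26.2 against 25.7 CPM.

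The chemokines that IRF factors switch on were rare. CXCL9, CXCL10 and CXCL11 had 0 UMIs, and CCL5 had 21 UMIs in 4 cells, 18 of them in 1 Control r2 cell. NF-kB targets had a median ratio of 1.41, with 1 of 8 above 2 (TNFAIP3, 11 UMIs). Of the 3 detected targets typical of interferon-γ, IRF1 and WARS (112 against 36.1 CPM, 3.09-fold) were higher in all 8 libraries. MHC class I genes had a median ratio of 1.36, and B2M, the invariant chain, was at 674 against 368 CPM and higher in all 8 libraries.

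PMAIP1 stood nearly alone among the 14 detected apoptosis genes, which had a median ratio of 1.13. BBC3, which encodes the related p53 target PUMA, was at 14.8 against 13.2 CPM, and BAX at 85.0 against 90.0 CPM. The 8 detected genes of the integrated stress response had a median ratio of 1.27, and 0 were higher in all 8 libraries. Only ATF3 had a ratio above 2 (8.64, 28 UMIs in 12 cells), with PPP1R15A at 1.92 and DDIT3 at 1.89. Immediate early genes had a median ratio of 1.53, and 3 of 10 were above 2, where 1.97% of all genes were. The 3 included JUN (17.3 against 4.48 CPM) and JUNB (67.7 against 32.7 CPM).

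The cells kept the melanocytic profile of the culture. The 10 detected melanocyte genes were all somewhat lower, with ratios of 0.662 to 0.982 and a median of 0.893. MLANA was at 1147 against 1181 CPM and SOX10 at 127 against 140 CPM. MITF, the master regulator of the lineage, was at 225 against 340 CPM and lower in all 8 libraries. Leukocyte markers were at or near 0, with 9 of 10 at 0 UMIs and a single UMI of LYZ, so that the list summed to 0.494 CPM in cluster 12 and 0.891 CPM in the other cells. The 3 detected markers of fibroblasts and epithelial cells had a median ratio of 1.04. Of 8 detected genes of the primed state 5 had a ratio above 2, against 1.97% of all genes, and 1 was higher in all 8 libraries. Their ratios ran from 0.894 to 9.30 with a median of 2.14. The whole list of 12 genes differed less, at a sum of 1695 CPM in cluster 12 and 1495 CPM in the other cells. NT5E (42.5 against 18.6 CPM) and FOSL1 (123 against 61.5 CPM) were among the 5. EGFR, a marker of that state, had 2 UMIs (0.988 against 1.23 CPM) and was too low to be among the 8.

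**Figure D2:**
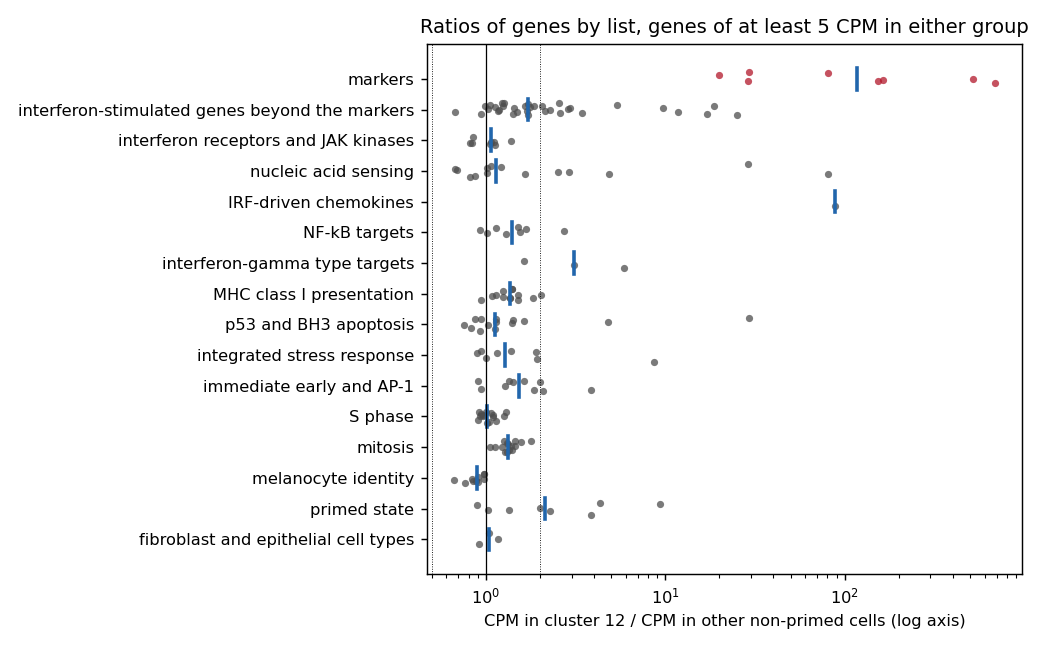
Ratio of summed CPM in cluster 12 to that in the other non-primed cells (log axis) for the genes of each list that reached 5 CPM in either group, 1 point per gene, with the list median as a blue bar. The dotted lines mark ratios of 0.5 and 2; the markers lie between 19.8 and 690, and the medians of the S phase, melanocyte and receptor lists lie between 0.893 and 1.06.

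Most cluster 12 cells carried several markers at once, which was largely built in, because the cells were clustered on these counts. When every cell was thinned to 5000 UMIs, 102 of the 114 cluster 12 cells (89.5%) had a UMI of at least 4 of the 8 markers. Of the other non-primed cells 53 did, and 35760 had fewer. Without thinning, 113 and 393 cells reached 4 markers, at median depths of 16907 and 16825 UMIs. The 8 markers summed to 3464 CPM in the median cluster 12 cell, with a range of 989 to 31767 CPM, and to 63.7 CPM in the median other cell, where the 99th percentile was 438 CPM and the highest cell had 8114 CPM. The ranges overlapped between 989 and 8114 CPM.

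**Figure D3:**
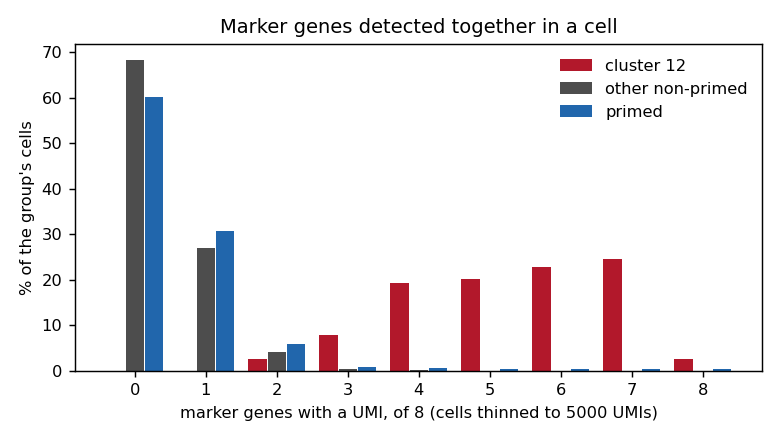
Percent of cells by the number of the 8 markers with a UMI after thinning to 5000 UMIs, for cluster 12 (red), the other non-primed cells (grey) and primed cells (blue). Cluster 12 cells mostly had 4 to 7 markers, whereas 68.4% of the other non-primed cells had none.

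Inside the cluster some pairs of genes rose and fell together from cell to cell more than others. Across the 114 cells IFIT2 followed IFIT3 (Spearman rho 0.609) and IFIT1 (0.567), and IFIH1 followed HERC5 (0.601), as did ISG15 (0.572). IFIT2 was only weakly related to HERC5 (0.0876) and to ISG15 (0.030), while IFIT3 had 0.308 with IFIH1, 0.313 with PMAIP1 and 0.255 with HERC5. The relation of IFIT2 with IFIT3 was 0.581 with library means removed and 0.484 in the 28 cells of TGFBRi r2. In the same way IFIT2 had 0.132 and 0.128 with HERC5, and 0.0977 and 0.281 with ISG15. The cells share libraries and differ in depth, so these values are descriptions.

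IFIT2 was also more concentrated in few cells than IFIT3 and PMAIP1, but less so than OASL. Its 10 highest cells held 49.1% of its UMIs and its highest cell 286 of 1639 UMIs. The 10 highest cells held 29.4% for IFIT3, 35.7% for PMAIP1, 39.2% for IFIT1, 43.3% for DDX58 and 69.3% for OASL. Without its top cell the IFIT2 ratio was 431.

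Depth was close to that of the other cells. The median cluster 12 cell had 16907 UMIs and 4126.5 genes, against 16825 UMIs and 4106 genes, and its mitochondrial share was 9.33% against 10.8%, lower in 7 of 8 libraries. None of the 114 cells had fewer than 5000 UMIs.

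The cell cycle phases in the deposited annotation were shifted towards G2M. In cluster 12, 53 of 114 cells (46.5%, exact interval 37.1 to 56.1%) were called G2M, 31.6% S and 21.9% G1, against 27.8% G2M, 35.7% S and 36.5% G1 in the other non-primed cells. The G2M share was 66.7 and 52.4% in the Control libraries, 23.1 and 50% with TGFB1, 50 and 53.6% with TGFBRi, and 25 and 22.2% with PI3Ki, where the other cells lay between 22.6 and 31.5%. The G2M share was thus higher than in the other cells of the same library in 6 libraries, in PI3Ki r1 by 2 of 8 cells in G2M against 22.6%, and lower in TGFB1 r1 and PI3Ki r2. All 15 mitosis genes had a ratio above 1, with a median of 1.32, and CCNB1, the mitotic cyclin, was at 193 against 109 CPM.

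The markers were high in all 3 phases. The median cell had 3507 CPM of the 8 markers in G1, 3407 CPM in S and 3837 CPM in G2M. IFIT2 was 599-fold higher than in other G1 cells, 560-fold in S and 471-fold in G2M.

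The lineage barcode, sequenced from a separate amplification, was found in 99.1% of cluster 12 cells and 98.0% of the other non-primed cells. The difference within libraries was 0.212 ± 4.62 percentage points (mean ± SD, 8 libraries) and cluster 12 was higher in 7 of 8 libraries (two-sided exact sign-flip permutation test, p = 0.922, smallest possible 0.00781). PI3Ki r1, where 1 of 8 cells lacked a barcode, went the other way, and in the other 7 libraries every cluster 12 cell had a barcode, against 95.4 to 99.7% of the other cells. Without PI3Ki r1 the difference was 1.76 points, a value that leaving out the only opposite library fixes in sign. With few cluster 12 cells a library and nearly all cells barcoded, the measure was near its ceiling. It can show neither a difference nor its absence.

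Cluster 12 was present under every treatment as a fraction of a percent of the non-primed cells. It held 0.370% (15 cells) and 0.595% (21 cells) in the Control libraries, 0.338% (13 cells) and 0.259% (10 cells) with TGFB1, 0.196% (10 cells) and 0.467% (28 cells) with TGFBRi, and 0.208% (8 cells) and 0.158% (9 cells) with PI3Ki. The means ± SD (n = 2) were 0.483 ± 0.160% in Control, 0.299 ± 0.056% with TGFB1, 0.331 ± 0.192% with TGFBRi and 0.183 ± 0.036% with PI3Ki. The TGFB1 and PI3Ki libraries lay below both Control libraries. Each TGFBRi library lay below the Control library of the same replicate number, but TGFBRi r2 (0.467%) lay above Control r1 (0.370%).

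The differences between treatments did not pass a test. The highest and lowest means differed by 0.299 percentage points, with a pooled SD between replicates of 0.129 points (exact permutation test within replicates, p = 0.25, 24 arrangements, smallest possible 0.0417). The difference was 0.412 points without Control r1 and 0.187 points without Control r2. In edgeR's quasi-likelihood test over the 11 non-primed clusters the log2 changes in abundance were -0.66 (SE 0.73, adjusted p = 0.416) with TGFB1, -0.53 (SE 0.68, adjusted p = 0.522) with TGFBRi and -1.41 (SE 0.77, adjusted p = 0.120) with PI3Ki. The change with TGFBRi was -0.06 without TGFBRi r1 and -1.24 without TGFBRi r2, that with TGFB1 was -1.18 without TGFB1 r1 and -0.14 without TGFB1 r2, and that with PI3Ki was -0.87 without PI3Ki r2, none of them called.

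**Figure D4:**
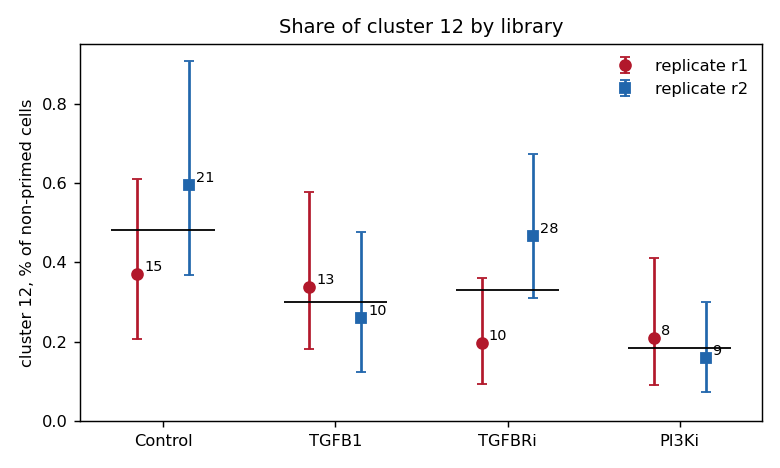
Cluster 12 cells as a percent of the non-primed cells in each library, with the number of cluster 12 cells beside each point, exact 95% binomial intervals (counting error only) and the treatment mean as a line. Libraries range from 0.158 to 0.595%, and the TGFBRi pair spans 0.196 to 0.467%.

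Treatment effects inside cluster 12 were tested on counts summed over its cells in each library. Of 3795 genes, edgeR called 13 (0.343%) with TGFB1, 5 (0.132%) with TGFBRi and 14 (0.369%) with PI3Ki, while DESeq2 called 1 each. The 8 markers had 0 calls with TGFB1, 2 with TGFBRi and 1 with PI3Ki, in each case a fall. The 15 tested interferon-stimulated genes beyond the markers had 1 call, ISG15, with TGFB1 and with PI3Ki, and 0 with TGFBRi. All 3 treatments are compared with the same pair of Control libraries. The cells were clustered on counts that include the markers and ISG15. Tests of these genes are therefore conditioned on membership, and their p-values hold only among cells already in the cluster.

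ISG15 was the member whose change was called by both tools. With PI3Ki it was 924 and 1119 CPM against 2300 and 2212 CPM in Control, a log2 change of -1.08 (SE 0.19, edgeR adjusted p = 9.08e-04; DESeq2 adjusted p = 8.08e-04). With TGFB1 the log2 change was -0.80 (SE 0.19, edgeR adjusted p = 0.0240), which DESeq2 did not call (adjusted p = 0.173). Leaving out Control r1 ended the PI3Ki call (log2 change -0.93). Leaving out any single Control or TGFB1 library ended the TGFB1 call, at -0.66 to -0.95, as did the fit without the filter on low counts (-0.88, adjusted p = 0.0506). In the other non-primed cells ISG15 changed by -0.11 with PI3Ki (adjusted p = 0.394) and by -0.15 with TGFB1 (adjusted p = 0.214), and the difference between the cell groups was not tested.

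OASL with PI3Ki rested on very few UMIs. It had 1 UMI in each PI3Ki library against 15 and 69 UMIs in Control, a ratio of 0.0513 (counting interval 0.00611 to 0.191). edgeR gave a log2 change of -4.01 (SE 0.74, adjusted p = 9.08e-04), and DESeq2 did not call it. Without Control r2 or without PI3Ki r2 the edgeR call was also lost (log2 changes -3.65 and -3.03).

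With TGFBRi, HERC5 was 487 and 379 CPM against 831 and 821 CPM in Control (log2 change -0.98, SE 0.21, edgeR adjusted p = 0.0148; DESeq2 adjusted p = 0.667). IFIT2 was 312 and 639 CPM against 723 and 1194 CPM (log2 change -0.98, SE 0.21, edgeR adjusted p = 0.0148; not called by DESeq2). Neither call held without Control r2 (HERC5 -1.0, adjusted p = 0.173; IFIT2 -0.68, adjusted p = 0.856), HERC5 was also lost without Control r1 (-0.96) or TGFBRi r2 (-0.77), and IFIT2 without TGFBRi r1 (-0.64) or without the replicate term (adjusted p = 0.0870). Both were lost with at least 10 cells a library (adjusted p = 0.0666), and without TGFBRi r2 the IFIT2 change was -1.60. IFIT3 did not pass under any treatment, with log2 changes of -0.02 (95% interval -0.40 to 0.36) with TGFB1, -0.20 (-0.57 to 0.18) with TGFBRi and 0.06 (-0.32 to 0.44) with PI3Ki.

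Genes outside the interferon lists were called as well. FN1, which encodes the matrix protein fibronectin and is induced by TGFβ, was 709 and 729 CPM with TGFB1 against 77.9 and 138 CPM (log2 change 2.68, SE 0.24, adjusted p = 3.68e-14), a call that held in all 13 alternatives. SERPINE2 and CTSB, a protease inhibitor and a lysosomal protease, rose with it, SERPINE2 by 1.22 on the log2 scale, and PTTG1, the mitotic securin, and SDCBP fell (-1.16 and -1.01). DESeq2 called none of these 4 genes, and in edgeR SERPINE2 was also lost without Control r1 (0.97), CTSB without Control r2 (1.11) or TGFB1 r2 (1.21), PTTG1 without Control r1 (-0.66) or TGFB1 r1 (-0.71), and SDCBP without any single Control or TGFB1 library (-0.95 to -1.14), without the replicate term (adjusted p = 0.0769) and without the filter on low counts (adjusted p = 0.0948). ID3, a direct target of SMAD signalling, had 1 and 0 UMIs with TGFBRi against 28 and 72 in Control, a ratio of 0.0126 (counting interval 3.15e-04 to 0.0717) that edgeR and DESeq2 both called (edgeR adjusted p = 9.90e-11). COL9A3, a collagen chain, and PIK3R3, a regulatory subunit of PI3K, were lower with TGFBRi in edgeR alone (-1.96 and -1.62), and both calls were lost without Control r2 or either TGFBRi library (COL9A3 -1.77 to -2.09, PIK3R3 -1.44 to -1.94). With at least 10 cells a library both were lost too (edgeR adjusted p = 0.0666 for COL9A3 and 0.0770 for PIK3R3), as were PTTG1 (0.0600) and SDCBP (0.0752) with TGFB1. With PI3Ki, MIA, PRDX1 and NDUFC2 rose (log2 changes 1.10, 0.89 and 0.87) and FN1 and ZFP36L2 fell (-2.35 and -2.12). DESeq2 called none of these 5. In edgeR all 5 were lost without Control r2 (MIA 1.01, PRDX1 0.72, NDUFC2 0.83, ZFP36L2 -1.83), MIA also without PI3Ki r1 (0.94), NDUFC2 without Control r1 (0.91), PI3Ki r2 (0.63) or the filter on low counts (0.83), and ZFP36L2 without PI3Ki r2 (-2.21). The FN1 fall was lost in DESeq2 (adjusted p = 0.332) and without Control r2 or either PI3Ki library, at -1.81 to -2.40.

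In the other non-primed cells edgeR called 2693 of 17903 genes (15%) with TGFB1, 537 (3%) with TGFBRi and 2180 (12.2%) with PI3Ki. Of the 8 markers, 3 were higher with TGFB1, 0 changed with TGFBRi and 1 was lower with PI3Ki. Among 44 interferon-stimulated genes beyond the markers, 4 were higher and 8 lower with TGFB1, 2 and 3 with TGFBRi, and 6 and 2 with PI3Ki.

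The rises with TGFB1 were small in CPM. IFIT2 was 2.52 and 2.71 CPM with TGFB1 against 1.19 and 1.38 CPM in Control (log2 change 1.01, SE 0.15, edgeR adjusted p = 1.73e-05), IFIT3 changed by 0.33 (adjusted p = 0.0226) and OASL by 1.91 (adjusted p = 0.0106). With cluster 12 counted in, the changes turned to -0.26, -0.0024 and -0.59, none of them called. Without the cells that had at least 4 markers, IFIT2 changed by 0.25 (adjusted p = 0.382) and IFIT3 by 0.18 (adjusted p = 0.238), and OASL was too low to test; these cells were picked by the same genes, so a smaller change was built in. The IFIT3 call was also lost in DESeq2 (adjusted p = 0.0865) and without Control r2, TGFB1 r1 or TGFB1 r2 (0.19, 0.31 and 0.36), and the OASL call without the same libraries (1.17, 1.76 and 2.21). Without the replicate term neither IFIT3 (adjusted p = 0.210) nor OASL (adjusted p = 0.0929) was called.

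With PI3Ki, PMAIP1 was lower in the other non-primed cells, at 22.4 and 25.7 CPM against 33.7 and 41.3 CPM (log2 change -0.54, SE 0.07, edgeR adjusted p = 3.68e-06; DESeq2 adjusted p = 3.92e-10). This call held in all 14 alternatives, and without the cells with at least 4 markers it was -0.52. Inside cluster 12 the change of PMAIP1 with PI3Ki was -0.29 (95% interval -0.70 to 0.12). The PI3Ki libraries of the other cells also had 12 of 15 mitosis genes lower, where edgeR called 1113 of all 17903 genes lower. The part of the cell cycle in the PMAIP1 change was not tested.

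Cells with the same markers occurred in the primed state as well. After thinning, 94 primed cells had at least 4 markers, of which 86 were in primed cluster 4 (2.63% of its 3270 cells) and 8 in primed cluster 10. Cluster 4 was itself almost made of TGFB1 libraries, which contributed 1548 and 1706 of its cells, so the TGFB1 libraries had 30 and 56 such primed cells. With primed cells counted, TGFB1 had the highest mean share of marker-carrying cells, 1.12%, and PI3Ki the lowest, 0.251% (exact permutation test, p = 0.0833, smallest possible 0.0417).

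These primed cells were picked by the markers, so their marker levels are a description. IFIT2 was at 838 CPM in them and 810 CPM in cluster 12, and IFIT3 at 1046 and 1185 CPM. OASL was at 379 against 67.7 CPM, RSAD2 at 101 against 12.8 CPM, CCL5 at 65.6 against 10.4 CPM, SAMD9L at 128 against 10.9 CPM and IRF1 at 153 against 29.7 CPM. The rest of the primed cells had 4.40 CPM of OASL, 1.60 CPM of RSAD2, 6.41 CPM of CCL5, 13.5 CPM of SAMD9L and 25.6 CPM of IRF1. The marker-carrying primed cells had a median of 12071.5 UMIs.

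The untreated WM989 cells of a separate experiment, sorted as mixed or as EGFR- and NGFR-high cells, grown and loaded into 8 wells of the 10x chip, held such cells too. After thinning to 5000 UMIs, 101 of 9688 non-primed cells (1.04%, exact interval 0.850 to 1.27%) and 102 of 2843 primed cells (3.59%) had at least 4 markers. Without thinning the shares were 20.8% and 54.7%, at a median depth of 53571 UMIs per cell, so only the thinned shares are set beside those of the treatment experiment. In WM983B, another BRAF V600E melanoma line, 32 of 718 non-primed cells (4.46%) and 74 of 731 primed cells (10.1%) had at least 4 markers after thinning.

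Whether the other genes of cluster 12 went with the markers was tested in these WM989 cells, which are not those of cluster 12, by a test chosen after the data had been seen. Cultures were split over chip wells, so the wells are in part technical repeats. The edgeR p-values rest on a spread between wells estimated in part from all genes, and do not measure that of each gene. For IRF1 the edgeR SE was 0.169, while the SD of its log2 ratio over the 5 wells was 1.01. Non-primed cells with at least 4 markers were compared with the other non-primed cells of the same well in the 5 wells with 10 to 39 such cells. With the markers left out, edgeR called 260 of 15885 genes (1.64%) higher and 266 lower, and DESeq2 214 and 45. Leaving out 1 well gave 176 to 226 higher and 143 to 203 lower, with the lower count at 151 without well 2, 143 without well 7 and 171 without well 8. All 7 further genes that led cluster 12 were called higher, each in 5 of 5 wells and by both tools.

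ISG15 was 6.98-fold higher over these wells, with a range of 4.08 to 9.41 and a mean log2 ratio of 2.81 ± 0.45 (SD, 5 wells). IFI44 was 9.92-fold higher (wells 7.98 to 11.4), DDX60 11.4-fold, RTP4 8.78-fold, ZC3HAV1 8.97-fold (wells 5.56 to 13.1) and APOL6 6.11-fold. IRF1 was the least even, at 6.58-fold with wells from 2.32 to 15.6. Each of these differences exceeded the spread between wells.

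The wider list was again divided. Of 45 tested interferon-stimulated genes beyond the markers edgeR called 18 higher and 0 lower (DESeq2 16 and 0), where 1.64% of all genes were higher in edgeR. Other lists rose as well: edgeR called 5 of 15 NF-kB targets and 4 of 12 primed-state genes higher (DESeq2 3 and 2), and 0 lower. From other lists, WARS was 2.55-fold and B2M 1.49-fold higher, each in 5 of 5 wells. MX1 was at 1.10 against 1.90 CPM (adjusted p = 0.603), and IFI6 was 1.25-fold higher (adjusted p = 0.0252). The 8 receptor and JAK genes had 0 calls in edgeR and 0 in DESeq2. Of the genes that were low in cluster 12, UBL3 (log2 change -0.67, adjusted p = 1.09e-06) and SLCO5A1 (-0.88, adjusted p = 0.0426, not called by DESeq2) were lower, while CERK (-0.52, adjusted p = 0.0873), POU3F1 (-0.74, adjusted p = 0.102) and CYP7B1 (0.05, adjusted p = 0.939) did not pass. Of 11 tested melanocyte genes, edgeR called 0 higher and 3 lower (DESeq2 0 and 2). Their median log2 change was -0.068, against -0.066 over all genes. MITF was lower by 0.35 and SOX10 by 0.53 on the log2 scale, in 5 of 5 wells each.

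**Figure D5:**
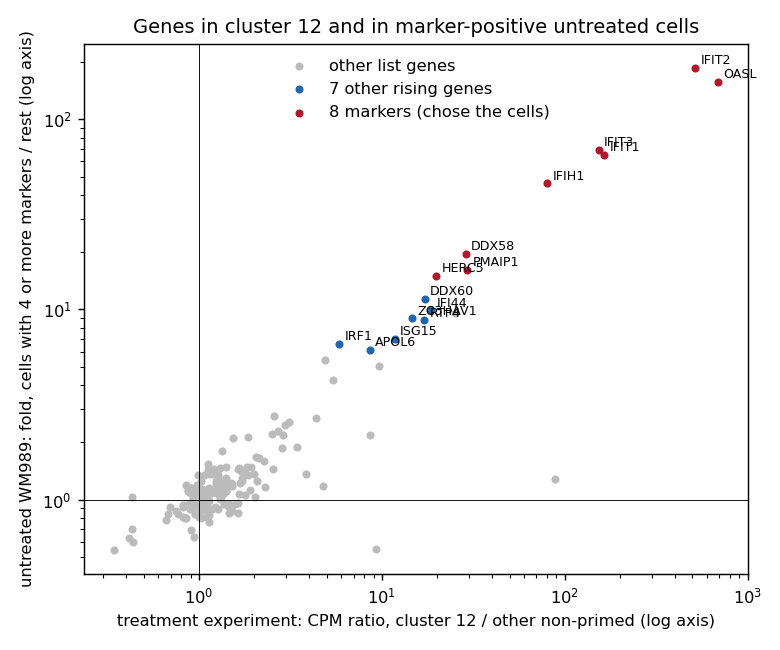
Fold difference between untreated WM989 non-primed cells with at least 4 markers and the rest of the same wells (vertical, log axis) against the ratio of cluster 12 to the other non-primed cells in the treatment experiment (horizontal, log axis), 1 point per gene. The 8 markers (red) chose the untreated cells; the 7 further genes (blue) lie between 6.11 and 11.4 on the vertical axis.

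Chromatin was accessible in sorted WM989 populations at the starts of 14 genes. These were IFIT3, IFIT1, IFIH1, PMAIP1, HERC5, IFI44, DDX60, RTP4, ZC3HAV1, ISG15, IRF1, RSAD2, MX1 and IFI6. IFIT2, OASL, DDX58 and APOL6 were not examined. In 12 ATAC-seq libraries of cells sorted as high for EGFR, for NGFR, for both, and of a population that the sample labels call Mix and the methods describe as negative for both (3 each), a peak lay within 500 bases of the start of all 14 genes examined in every library, as was the case for 48.2% of all gene starts. The fold enrichment of the peak was 31.3 to 54.5 at IFIT3, 18.1 to 30.6 at IFIT1, 32.4 to 52.1 at IFIH1, 33.2 to 49.8 at ISG15 and 73.9 to 113 at IFI6. Cells of the kind found in cluster 12 cannot be told apart in these libraries, and the values describe the whole sorted populations.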

How the data were processed

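Single-cell 3′ libraries (10x, V3.1 in the treatment experiment) were made from WM989 cells, and Cell Ranger, named in the submitters' processing notes without a version, gave the deposited UMI counts per gene and cell, with cluster, state, phase and lineage barcode tables. The authors also deposited the percent of mitochondrial UMIs per cell, computed in Seurat. The ATAC-seq values, as deposited by the authors, are peak calls with a fold enrichment ratio per peak, made for each library with Bowtie2 2.3.4.1, SAMtools 1.1 and MACS2 2.1.1.20160309 on hg38. GEO's labels call the 2 libraries of each treatment Mix and Primed and do not name r1 and r2, so libraries were taken from the deposited cell table.

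The cells, marker genes and gene lists were chosen with earlier results of these data known. Counts were summed per library and cell group in Python 3.11.15 and tested with edgeR 4.0.16 (quasi-likelihood, TMM, filterByExpr, replicate as a term, Benjamini-Hochberg over all genes kept, adjusted p under 0.05) and, as an alternative, DESeq2 1.42.0. The edgeR scripts were tested on simulated data. Replicates r1 and r2 were paired across treatments because the methods describe a shared well for each. Differences r2 minus r1 over 5533 genes correlated by 0.441 to 0.647 between Control, TGFB1 and PI3Ki. For TGFBRi they correlated by 0.0919 with Control, 0.186 with TGFB1 and 0.336 with PI3Ki, so its pairing is less sure. The replicates are parallel cultures of 1 clone, so p-values speak of such cultures only. With 2 libraries a treatment, edgeR estimates the spread in part from all genes, so its p-values do not measure the spread of each gene between cultures. Inside cluster 12 the SE of FN1 with TGFB1 was 0.24 in edgeR and 0.38 in DESeq2. That of OASL with PI3Ki was 0.74 and 1.53. Libraries with at least 5 cluster 12 cells entered the fits. Intervals and limits (3 counts for 0) cover counting error only. Doublets were not called here, and deposited cells were used without further filter.

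The text names the 8 markers, members of the fixed lists, the 15 genes with the largest ratio among genes of at least 20 CPM that were higher in all libraries, the 5 lowest, and per edgeR comparison inside cluster 12 the 3 called genes that rose and the 3 that fell most, where there were as many; treatment genes of the other cells are not named by this rule here. Alternatives covered tools, filters, the replicate term, denominators, marker numbers and each library left out. The untreated comparison was chosen after seeing the data. Authors' p-value columns of the peak lists were not used.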

Additional observations from a re-analysis of the deposited data

Results flagged for a closer look

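In 5 combinations of gene and treatment, of 45 examined, both replicates inside cluster 12 moved one way and both replicates of the other non-primed cells the other way; these differences were not tested, and with 2 replicates on each side random signs would give this in 1 of 8 combinations. IFIH1 with TGFB1 had a log2 change of 0.13 inside cluster 12 and -0.31 outside. DDX60 with TGFBRi had -1.24 inside and 0.07 outside, and IFIT2 with TGFBRi -0.98 inside and 0.19 outside. OASL with TGFB1 had -0.87 inside, where the TGFB1 libraries held 8.76 and 121 CPM, and 1.91 outside, where they held 0.185 and 0.321 CPM. PMAIP1 with TGFB1 had -0.46 inside and 0.14 outside. Only IFIT2 inside (edgeR adjusted p = 0.0148) and OASL outside (adjusted p = 0.0106) passed the test in their own cell group.

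In the untreated WM989 wells the ISG15 ratio of cells with at least 4 markers to the other non-primed cells was 4.08 in 1 well and 7.55 to 9.41 in the other 4, so that well stood apart from the rest. It held 10 such cells. Of 15 genes examined in this way 1 stood out, and chance alone picks out about 1 in 20.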

How the results depend on the processing

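Control had the highest and PI3Ki the lowest share of cluster 12 under every alternative run except the marker definition with primed cells included, where TGFB1 was highest, and no alternative brought the abundance test past its threshold. For the gene ratios, 20 genes under 11 alternatives each gave 220 values, of which 180 moved by less than the spread between libraries and 7 by more; 33, of 3 genes with a library at 0, had no spread to be compared with, and 0 reversed. In G1 cells alone the ratio of HERC5 was 30.8 and that of DDX58 16.7. Counts of called genes were less stable. Inside cluster 12, DESeq2 called 1 gene with each treatment; without the filter on low counts 8 genes were called with TGFB1 and 9 with TGFBRi, and with at least 10 cells a library 5 and 1, while PI3Ki could not be fitted because neither of its libraries had that many. Leaving out 1 library gave 3 to 20 genes with TGFB1, 4 to 13 with TGFBRi and 8 to 25 with PI3Ki. In the other non-primed cells the fit without the replicate block called 1196 genes with TGFB1, 47 with TGFBRi and 570 with PI3Ki, DESeq2 called 1824, 328 and 1458, and leaving out 1 library gave 1020 to 3762, 230 to 1272 and 646 to 3286. Counting cluster 12 among the other cells turned the TGFB1 changes of IFIT2, IFIT3 and OASL to -0.26, -0.0024 and -0.59. The difference in barcoded cells became -1.36 points with at least 2 barcode UMIs and ranged from -0.41 to 1.76 when 1 library was left out (-0.080 without TGFBRi r1, -0.15 without TGFBRi r2, -0.41 without PI3Ki r2), where 1.76 was the value without PI3Ki r1, the only library of opposite sign. The 53 other non-primed cells with 4 markers became 173 with 3 markers and 393 without thinning. Of 28 gene calls examined, those of FN1 with TGFB1, ID3 with TGFBRi and PMAIP1 with PI3Ki held in all their alternatives; the cause of the other lost calls was not tested. The cluster 12 cells held 139922 to 463016 UMIs a library, and the part of depth in its fits was not tested.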
